A study of Triticum aestivum with 3 samples.

Results

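The microRNA families miR395, miR399 and miR827 link the sulphate and phosphate supply of a plant to gene expression. In the deposited table of expressed miRNAs from wheat (Triticum aestivum) leaves, every row with one of these family numbers was taken. There were 35 such rows, or 30 of the 1896 distinct sequences, with 6 sequences of miR395, 13 of miR399 and 11 of miR827. The study asked which miRNAs take part in stress of the endoplasmic reticulum. Wheat seedlings had 2 days of dithiothreitol (DTT) together with tauroursodeoxycholic acid (TUDCA), of DTT alone, or of the control treatment. DTT reduces the disulfide bonds of proteins that fold in the endoplasmic reticulum, and TUDCA, a bile acid, acts as a chemical chaperone for such proteins. Each treatment is 1 sample with 2 RNA pools, mixed from its biological replicates, and no source used here gives the doses or the cultivar. With 1 sample per treatment no test between treatments was made, and every value describes these libraries. Paired values below are those of pool 1 and then pool 2.

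miR395 targets ATP sulfurylases and a sulphate transporter, and plants short of sulphate accumulate it. miR399 targets PHO2, a ubiquitin-conjugating enzyme that restrains phosphate uptake and transport, and it accumulates and moves in the phloem when phosphate is short. miR827 also responds to phosphate. It targets the ubiquitin ligase gene NLA in Arabidopsis and SPX-MFS genes, which encode vacuolar phosphate transporters, in rice.

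A name carries the species that a sequence was registered from. The grass prefixes are tae (wheat), ata (Aegilops tauschii), osa (rice), bdi (Brachypodium distachyon), hvu (barley) and zma (maize), and 18 of the 30 sequences had such a name. The other 12 had names such as ath (Arabidopsis thaliana), aly (Arabidopsis lyrata), aof (asparagus) or cca (Cynara cardunculus). In a name, L and R mark bases gained or lost at the 5′ and 3′ end, and ss marks substitutions, against the registered form. All 18 sequences with grass names had a wheat precursor position that spans 50 bases or more, against 1 of the 12 with other names, cca-miR399. Of the other 11, 6 had no position and 5 a position under 50 bases.

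Both abundant miR827 sequences are shown first, since they led the families and peaked in different pools, followed by the close relatives of the rice form. Capitals mark the seed, bases 2 to 8 from the 5′ end.
osa-miR827: tTAGATGAccatcagcaaaca
ath-miR827: tTAGATGAccatcaacaaact
osa-miR827_1ss21AT: tTAGATGAccatcagcaaact
osa-miR827_1ss21AG: tTAGATGAccatcagcaaacg
bdi-miR827-5p: tTTTGTTGgttgtcatctaacc
bdi-miR827-5p_1ss6TC: tTTTGCTGgttgtcatctaacc

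The rice and Arabidopsis forms of miR827 share their seed and the first 14 bases. From osa-miR827 to ath-miR827 the substitutions are G15A and A21T, with positions counted from 1 at the 5′ end. The other grass-named 3p forms of 21 bases differ from osa-miR827 by A21T or by A21G. The precursors of the grass-named miR827 sequences were placed on group 2 chromosomes of wheat, by scaffolds of the TGACv1 assembly except for osa-miR827_1ss21AG, which was placed on the 2BL gene model Traes_2BL_FDF5ED8FA, minus strand, 779 to 927. osa-miR827 and bdi-miR827-5p share a precursor on scaffold 159778 of 2DL, minus strand, 22374 to 22523. osa-miR827_1ss21AT and bdi-miR827-5p_1ss6TC share one on scaffold 094865 of 2AL, minus strand, 6205 to 6344. The shorter osa-miR827_L-1 was placed on scaffold 129819 of 2BL, minus strand, 41105 to 41253. ath-miR827 had no wheat position in the table, and gene annotation around the precursors was not used here.

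Of the miR399 and miR395 sequences below, the miR399 3p forms and the first pair of miR395 are shown because near-identical sequences had unlike levels or patterns over the pools. The last pair is shown because both were at least 2-fold lower with DTT than in control.
osa-miR399d: tGCCAAAGgagagttgccctg
ata-miR399a-3p: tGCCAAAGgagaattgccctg
hvu-miR399: tGCCAAAGgagatttgccccg
bdi-miR399d: tGCCAAAGgagatttgcccgg
cca-miR399: tGCCAAAGgagatttgccctg
aly-miR399b-3p_L+2R-2: cTTGCCAAaggagagttgccc
tae-miR395a_L-1: tGAAGTGTttgggggaactc
aly-miR395d-3p_L-1_1ss21CT: tGAAGTGTttgggggaactt
aly-miR395e-5p_R-1: gTTCCTCTgagcacttcatt
ppe-MIR395c-p3_2ss3AT18TC: tATTTCTTtctgatcaac

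Of the 13 miR399 sequences, 6 share the seed GCCAAAG. From osa-miR399d, ata-miR399a-3p differs by G13A and cca-miR399 by G13T. hvu-miR399 differs by G13T and T20C, and bdi-miR399d by G13T and T20G. A run of 19 bases of osa-miR399d also stands in aly-miR399b-3p_L+2R-2, which the table lists under melon (cme) and cassava (mes) names as well. The sequence named ppe-MIR395c-p3_2ss3AT18TC, from peach, is 18 bases long, shares no run over 3 bases with tae-miR395a_L-1 and was matched over 18 bases of a chromosome 3B scaffold.

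The values are normalized reads, as the authors deposited them. The 6 pools held between 541764 and 680171 of them over the distinct sequences, worth about 330652 to 1211766 reads. The 3 families took 0.255% to 1.16% of a pool. The makeup of the pools differed within treatments. A list of 156 sequences from wheat and grass lineages (miR5048 to miR5086 and miR9652 to miR9863) took 13.9% and 1.10% of DTT+TUDCA pools 1 and 2. It took 1.70% and 6.46% of the DTT pools and 1.57% and 5.11% of the control pools. A second list holds 101 sequences that match a registered Arabidopsis miRNA exactly and have no wheat position. It took 2.14% and 5.69% of the DTT+TUDCA pools, 4.99% and 5.36% of the DTT pools and 4.21% and 3.57% of the control pools. Neither list holds a member of the 3 families. For the leaf label, miRNAs that start reproductive-tissue siRNAs in grasses were looked up. miR2275 was listed at 0 in 5 pools and at 1.44 in the remaining one, of DTT. The highest value of a sequence named miR2118 was 33.9, for osa-MIR2118e-p3_2ss12TA18CT in control pool 2, a form with substitutions. zma-miR2118e was listed in DTT+TUDCA pool 1 alone, at 8.52.

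miR827, the most abundant of the families, gave 2 unlike patterns over the pools. osa-miR827, which ranks 32 in the table by its mean, was at 6626 and 413 normalized reads in DTT+TUDCA pools 1 and 2, 736 and 1727 with DTT alone, and 607 and 2016 in control. It was highest in DTT+TUDCA pool 1 and lowest in DTT+TUDCA pool 2, so the pools of all 3 treatments overlapped. The 95% counting intervals were 6462 to 6793 and 385 to 443 in these 2 pools, exact Poisson intervals on the reads a value is worth, which cover counting error only. ath-miR827 was at 568 and 1562 with DTT+TUDCA, 781 and 792 with DTT alone, and 786 and 704 in control. It was lowest where osa-miR827 was highest, and highest where osa-miR827 was lowest. The ratio of osa-miR827 to ath-miR827 within a pool was 11.7 and 0.264 with DTT+TUDCA, 0.942 and 2.18 with DTT alone, and 0.772 and 2.86 in control.

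**Figure D1:**
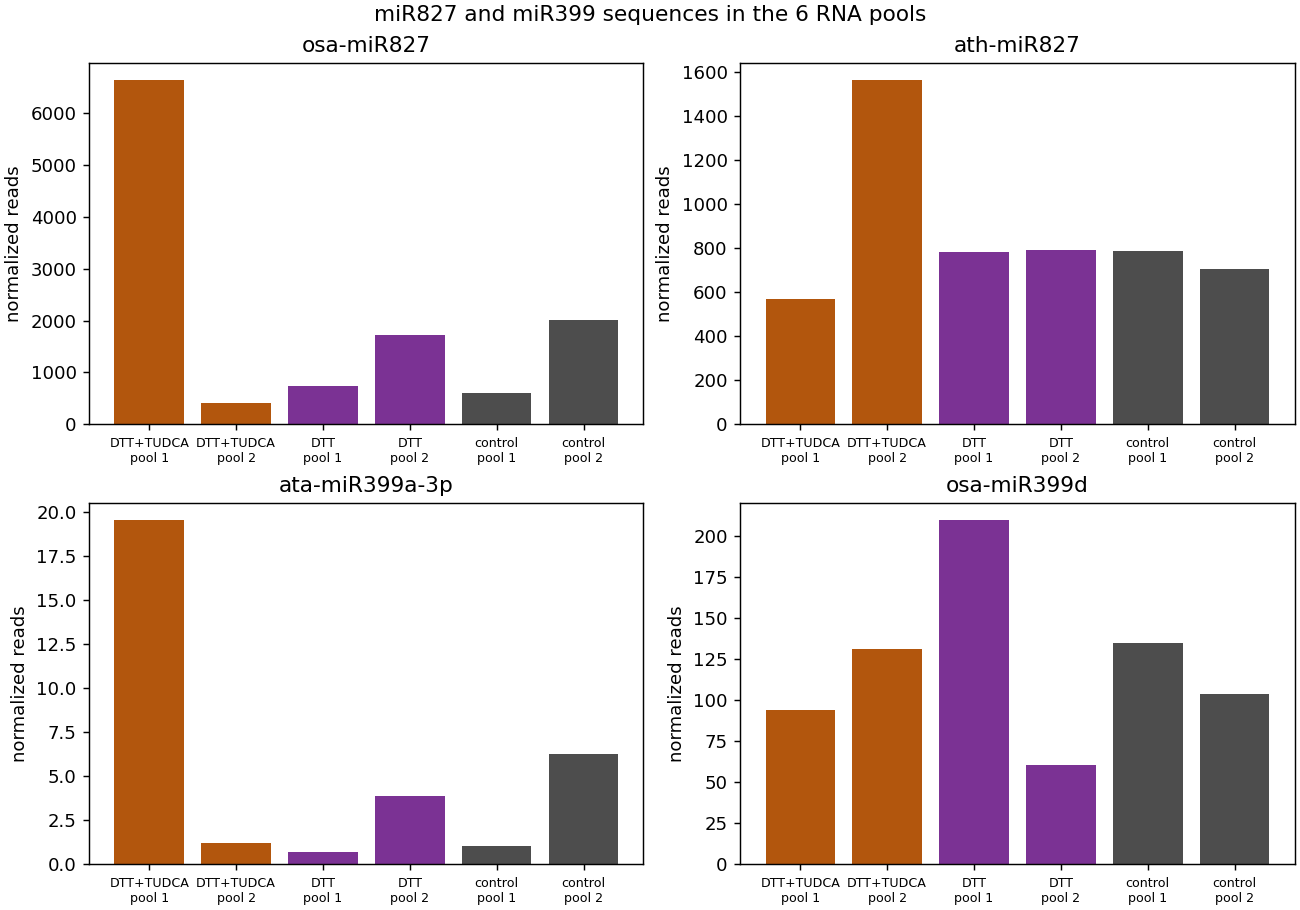
Normalized reads (bars, y axis from 0, a scale for each panel) of osa-miR827, ath-miR827, ata-miR399a-3p and osa-miR399d in the 2 RNA pools of DTT+TUDCA, DTT and control. osa-miR827 and ata-miR399a-3p stand highest in DTT+TUDCA pool 1, at 6626 and 19.5, whereas ath-miR827 stands highest in DTT+TUDCA pool 2, at 1562, and osa-miR399d in DTT pool 1, at 210.

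Set against the wheat and grass lineage list, osa-miR827 was nearly level over the pools. Per 100 reads of that list it stood at 6.99 and 6.03 with DTT+TUDCA, 6.76 and 4.94 with DTT alone, and 5.86 and 7.03 in control. The highest of these was 1.42 times the lowest, against 16.0 times for the deposited values. Per 100 reads of the same list ath-miR827 ranged from 0.599 to 22.8. Per 100 reads of the Arabidopsis list the order was the other way round, with 2.45 to 4.39 for ath-miR827 and 1.16 to 45.6 for osa-miR827. The share of the wheat and grass lineage list moved with the level of osa-miR827, and its part in the differences between treatments was not tested apart from the scaled values given with each comparison.

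**Figure D2:**
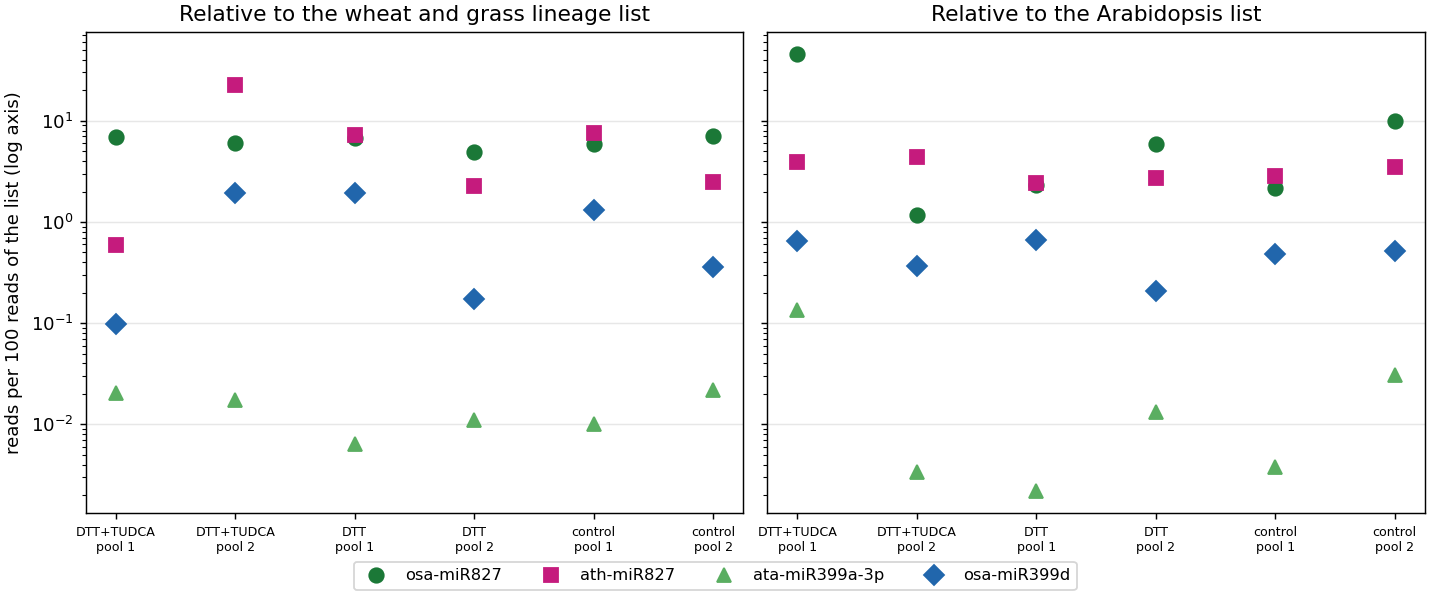
Reads of 4 members per 100 reads of the wheat and grass lineage list (left) and of the Arabidopsis list (right), on a log axis, in the 2 pools of each treatment. On the left osa-miR827 stays between 4.94 and 7.03 while ath-miR827 spreads from 0.599 to 22.8, and on the right ath-miR827 stays between 2.45 and 4.39.

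Of the grass-named miR827 reads, osa-miR827 took 93.4% to 94.8% over the 6 pools. osa-miR827_L-1, shorter by 1 base at the 5′ end, took 2.63% to 3.73% and was at 186 and 16.5 normalized reads with DTT+TUDCA, 25.1 and 49.0 with DTT alone, and 17.3 and 57.7 in control. osa-miR827_1ss21AT, of the 2AL precursor, took 1.28% to 2.93% and was at 143 and 5.67 with DTT+TUDCA, 11.5 and 41.8 with DTT alone, and 18.8 and 35.6 in control. Both were highest in DTT+TUDCA pool 1 and lowest in DTT+TUDCA pool 2. osa-miR827_1ss21AG was at 70.3 and 3.09 normalized reads with DTT+TUDCA, listed at 0 and 12.2 with DTT alone, and listed at 0 and 6.79 in control. Its share was 0.992% and 0.699% with DTT+TUDCA, 0 and 0.664% with DTT alone, and 0 and 0.317% in control. Both DTT+TUDCA shares lay above the others, though DTT+TUDCA pool 2 rests on 6 reads and DTT pool 2 on 17. bdi-miR827-5p was at 33.0 and 1.55 with DTT+TUDCA, 2.09 and 9.36 with DTT alone, and 0 and 13.6 in control. bdi-miR827-5p_1ss6TC was at 33.0 and 2.58 with DTT+TUDCA, 2.09 and 5.04 with DTT alone, and 0 and 13.6 in control. These 5p forms, from the opposite arm of the hairpin, had 0.940 and 0.941 reads per 100 reads of the 3p forms in the DTT+TUDCA pools. This share was 0.541 and 0.787 with DTT alone, and 1.28 in control pool 2, while control pool 1 lists both 5p forms at 0. Among the other names, aof-MIR827-p5, the Arabidopsis form without its last base, was at 23.4 and 20.1 with DTT+TUDCA, 11.5 and 18.7 with DTT alone, and 15.7 and 20.4 in control. aof-miR827_1ss21AG was at 8.52 and 6.19 with DTT+TUDCA, 2.09 and 5.04 with DTT alone, and 12.6 and 5.09 in control. Both were far below ath-miR827 in every pool. ath-miR827_L-2 was at 6.39 and 2.58 with DTT+TUDCA, 0 and 2.88 with DTT alone, and 4.71 and 0 in control. aly-miR827-5p_2ss13CT19TC was at 0 and 1.55 with DTT+TUDCA, 0 and 5.04 with DTT alone, and 9.42 and 0 in control.

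miR399 was led by osa-miR399d, which took 64.5% to 89.9% of the grass-named miR399 reads. It was at 93.8 and 131 normalized reads with DTT+TUDCA, 210 and 60.5 with DTT alone, and 135 and 104 in control. The DTT pools held both the highest and the lowest value. Unlike osa-miR827 it was not level against the wheat and grass lineage list, with 0.0988 to 1.93 reads per 100 reads of that list and 0.208 to 0.658 per 100 reads of the Arabidopsis list. ata-miR399a-3p, apart by G13A, was at 19.5 and 1.20 with DTT+TUDCA, 0.697 and 3.84 with DTT alone, and 1.05 and 6.22 in control. Like osa-miR827 it was highest in DTT+TUDCA pool 1. Its ratio of highest to lowest was 28.0 as deposited and 3.39 per read of the wheat and grass lineage list, on values worth 0.67 to 18.3 reads, which include fractions of a read.

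hvu-miR399 and cca-miR399 both carry G13T against osa-miR399d, and both were far less abundant, with means over the pools of 10.7 and 14.9 normalized reads against 122. hvu-miR399 was at 16.0 and 9.28 with DTT+TUDCA, 15.7 and 6.48 with DTT alone, and 4.71 and 11.9 in control. cca-miR399 was at 11.7 and 20.6 with DTT+TUDCA, 23.0 and 9.36 with DTT alone, and 7.85 and 17.0 in control. Neither separated the treatments. aly-miR399c-5p, a passenger-arm form without a wheat position, was at 12.8 and 24.2 with DTT+TUDCA, 14.6 and 10.1 with DTT alone, and 29.8 and 17.0 in control. On the deposited values its DTT pools both lay below its control pools, with a summed ratio of 1.86-fold lower, while its DTT+TUDCA pools overlapped both others.

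Longer and shorter ends of osa-miR399d were rare. osa-miR399d_L+1 was listed at 0 and at 5.16 with DTT+TUDCA, at 11.5 and 6.48 with DTT alone, and at 0 in both control pools. osa-miR399d_L+2R-2 was at 3.20 and 10.8 with DTT+TUDCA, 17.8 and 5.76 with DTT alone, and 6.28 and 6.79 in control. osa-miR399d_R-2 was at 4.26 and 5.16 with DTT+TUDCA, 8.36 and 0 with DTT alone, and 3.14 and 5.09 in control. Both were highest in DTT pool 1, as osa-miR399d was. bdi-miR399d was at 4.26 and 3.61 with DTT+TUDCA, 10.4 and 2.88 with DTT alone, and 0 and 6.79 in control. aly-miR399b-5p was at 3.20 and 2.06 with DTT+TUDCA, 0 and 1.44 with DTT alone, and 0 and 5.09 in control. aly-miR399b-3p_L+2R-2 was at 0.71 and 4.13 with DTT+TUDCA, 2.09 and 0 with DTT alone, and 3.14 and 0 in control. The 5p forms ata-miR399b-5p_L-2R+2 and zma-miR399e-5p_2ss6TC13CA were each listed in DTT+TUDCA pool 1 alone, at 2.13. The precursor of osa-miR399d lies on scaffold 094094 of 2AL, minus strand, 6335 to 6453. Those of osa-miR399d_L+1, osa-miR399d_L+2R-2 and osa-miR399d_R-2 were placed elsewhere, on scaffolds of 2DL, 7BL and 2BL. Those of ata-miR399a-3p lie on scaffolds of 1BL and 4DL, and of 7DL under the sorghum name sbi-miR399a.

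miR395 was close to the lower end of what these libraries hold. tae-miR395a_L-1 was at 21.3 and 3.09 normalized reads with DTT+TUDCA, 3.13 and 8.64 with DTT alone, and 3.14 and 8.49 in control. These are 20 and 6, 3 and 12, and 2 and 5 reads. Per 100 reads of the wheat and grass lineage list it ranged from 0.0225 to 0.0451. Its precursor, on scaffold 158142 of 2DL, plus strand, 32328 to 32411, lies 273 bases from that of bdi-MIR395e-p5_1ss18CT, at 31903 to 32054 on the same strand. bdi-MIR395e-p5_1ss18CT was listed in DTT+TUDCA pool 1 alone, at 4.26, and so was aly-miR395d-3p_L-1_1ss21CT, at 3.20. ata-miR395a-3p_L+1, longer than the registered form by 1 base at the 5′ end, was at 1.60 and 0.774 with DTT+TUDCA, 2.09 and 0 with DTT alone, and 2.35 and 0 in control.

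aly-miR395e-5p_R-1 was listed at 0 in both DTT+TUDCA pools, at 2.09 and 0 with DTT alone, and was at 15.7 and 8.49 in control. It was the one miR395 sequence whose control pools lay above the pools of both other treatments, on values worth 10 and 5 reads. ppe-MIR395c-p3_2ss3AT18TC was at 0 and 4.13 with DTT+TUDCA, 0 and 1.44 with DTT alone, and 0 and 25.5 in control, so that its level in control rests on pool 2.

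**Figure D3:**
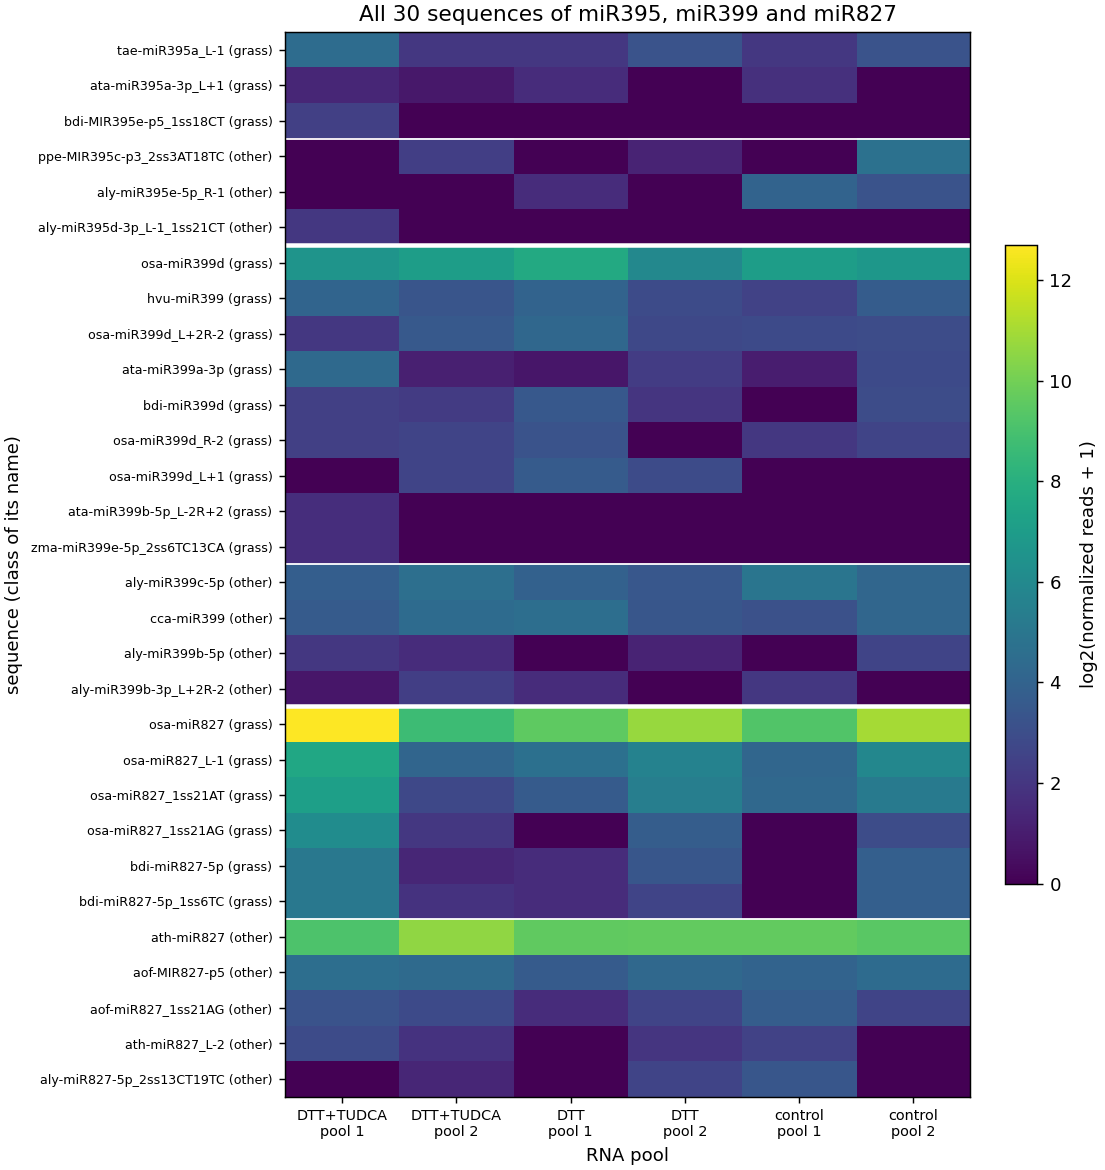
All 30 sequences (rows, with the class of their name) by RNA pool (columns), coloured by log2 of the normalized reads plus 1. White lines part the families and, thinner, the name classes. The rows of grass-named miR827 brighten together in DTT+TUDCA pool 1, up to 6626 normalized reads for osa-miR827, and the row of ath-miR827 stays between 568 and 1562.

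On the deposited values, DTT against control left all 10 measured grass-named members less than 2-fold apart from the control. A member counted as measured with at least 20 normalized reads over the 4 pools, and as higher or lower when the log2 ratio of the summed pools plus 1 was at least 2-fold. Of the 17 measured members 0 were higher and 3 lower, against 16.8% higher and 10.2% lower of the 958 measured sequences in the table. The 3 lower members, aly-miR395e-5p_R-1, ppe-MIR395c-p3_2ss3AT18TC and aof-miR827_1ss21AG, carry other than grass names. Both miR395 sequences passed the floor through the control pools where they are high, so nothing is read from this count. Both DTT pools lay below both control pools in 3 measured members, against 18.4% of all measured sequences, and above them in 0, against 22.8%. The 3 were aly-miR395e-5p_R-1, aof-miR827_1ss21AG and aly-miR399c-5p. Scaled to the wheat and grass lineage list, the pools of aof-miR827_1ss21AG and aly-miR399c-5p overlapped. aly-miR399c-5p was then at 29.0 and 7.56 with DTT and 53.7 and 12.5 in control. The log2 ratio of aof-miR827_1ss21AG was -1.20, and it was -0.46 without control pool 1. Without control pool 2 the log2 ratio of ppe-MIR395c-p3_2ss3AT18TC turned from -3.44 to 1.29. That value rests on 1.44 normalized reads in DTT pool 2 against 0 in control pool 1. The median log2 ratio of the measured members was -0.03, beside 0.08 for all sequences. Scaled to the wheat and grass lineage list, hvu-miR399, osa-miR399d_L+2R-2, bdi-miR399d and osa-miR399d_L+1 had log2 ratios of 1.02, 1.23, 1.99 and 4.84. These rest on values worth at most 17 reads, and all 4 passed the floor only through the DTT pools, where they are high. Scaled in this way they were at 31.1, 35.2, 20.7 and 22.8 in DTT pool 1. In DTT pool 2 they were at 4.86, 4.32, 2.16 and 4.86. Nothing is therefore read from these 4 ratios. The 3 members lower on the scale of that list were aly-miR395e-5p_R-1, aof-miR827_1ss21AG and aly-miR827-5p_2ss13CT19TC, with log2 ratios of -2.79, -1.62 and -1.91. ppe-MIR395c-p3_2ss3AT18TC fell under the floor there. aly-miR827-5p_2ss13CT19TC was listed at 0 in control pool 2 and DTT pool 1.

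Family sums for DTT against control were under 2-fold apart for each family and name class except miR395 with other names. The 6 grass-named miR827 sequences summed to 776 and 1844 with DTT alone and 644 and 2143 in control, with a log2 ratio of -0.09. Single pools gave ratios between -1.46 and 1.52, and without control pool 2 the ratio was 1.03. Scaled to the wheat and grass lineage list it was 0.096. The 5 other miR827 names summed to 794 and 824 with DTT alone and 829 and 730 in control, with a log2 ratio of 0.05. For grass-named miR399 the sums were 274 and 85.9 with DTT and 150 and 140 in control. The log2 ratio of 0.31 turned to -0.75 without DTT pool 1 and was 0.70 on the scale of that list. Grass-named miR395 summed to 5.22 and 8.64 with DTT and 5.49 and 8.49 in control, a log2 ratio of -0.01. The 3 other miR395 names summed to 2.09 and 1.44 with DTT and 15.7 and 33.9 in control, a log2 ratio of -3.48 with both DTT pools below both control pools, and of -2.84 without control pool 2. Those control sums are aly-miR395e-5p_R-1 in pool 1 and mostly ppe-MIR395c-p3_2ss3AT18TC in pool 2. The 4 other miR399 names summed to 39.7 and 20.9 with DTT and 40.8 and 39.0 in control, a log2 ratio of -0.39.

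DTT+TUDCA against DTT gave a higher sum for grass-named miR827, with DTT+TUDCA pool 1 above both DTT pools and pool 2 below both. The sums were 7092 and 442 with DTT+TUDCA and 776 and 1844 with DTT alone, a log2 ratio of 1.52. Without DTT+TUDCA pool 1 this ratio turned to -1.57, and scaled to the wheat and grass lineage list it was -0.21. On that scale the sums were 1386 and 1149 with DTT+TUDCA and 1539 and 1384 in the DTT pools. The other miR827 names had a log2 ratio of 0.44, which was -0.42 without DTT+TUDCA pool 2. Grass-named miR399 had one of -0.21, which turned to 0.86 without DTT pool 1, and grass-named miR395 had one of 1.11, which turned to -0.77 without DTT+TUDCA pool 1. For the other miR395 names the sums were 3.20 and 4.13 with DTT+TUDCA and 2.09 and 1.44 with DTT, a log2 ratio of 0.88 on sums of at most 8 reads a pool, with both DTT+TUDCA pools above both DTT pools. Scaled to the wheat and grass lineage list, those sums were 0.62 and 10.7 with DTT+TUDCA and 4.14 and 1.08 with DTT, and the pools overlapped. The other miR399 names had a log2 ratio of 0.39, which turned to -0.091 without DTT+TUDCA pool 2.

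Of the 18 members measured in DTT+TUDCA against DTT, 7 were at least 2-fold higher, or 38.9%, against 40.2% of all 1099 measured sequences. The 7 are the 6 grass-named miR827 sequences and ata-miR399a-3p, and in 0 of them did the DTT+TUDCA pools lie wholly above those of DTT. Among the 7, osa-miR827_1ss21AG, bdi-miR827-5p, bdi-miR827-5p_1ss6TC and ata-miR399a-3p passed the floor only through the DTT+TUDCA pools. The higher count is therefore not read against that of all sequences. Of all grass-named sequences, 228 of 347 were higher. The 1 lower member was osa-miR399d_L+1, 3.08-fold on the summed pools, against 3.46% of sequences lower. It was also the 1 member with DTT+TUDCA pools wholly below the DTT pools, against 6.37% of sequences, on values worth at most 11 reads. It passed the floor only through its DTT pools, where it is high. For aof-MIR827-p5 and aof-miR827_1ss21AG the DTT+TUDCA pools lay wholly above, as for 11.3% of sequences, by 1.43-fold and 1.93-fold on the sums, under the 2-fold limit. Scaled to the wheat and grass lineage list, the pools of both overlapped. aof-MIR827-p5 was then at 4.58 and 52.2 with DTT+TUDCA and 22.8 and 14.0 with DTT. aof-miR827_1ss21AG was at 1.67 and 16.1 with DTT+TUDCA and 4.14 and 3.78 with DTT. The members' median log2 ratio was 0.76, beside 0.72 for all sequences.

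DTT+TUDCA against control shared the DTT+TUDCA pools with the comparison above and again depended on pool 1. Of 18 measured members 8 were higher, or 44.4%, against 41.4% of the 1107 measured sequences, and 2 were lower, against 6.05%. Both lower ones passed the floor only through control pools, so nothing is read from that count. The 8 were the same 7 sequences and tae-miR395a_L-1, and in 0 of the 8 did the DTT+TUDCA pools lie wholly above those of control, as they did for 17.1% of sequences. Among the 8, osa-miR827_1ss21AG, bdi-miR827-5p, bdi-miR827-5p_1ss6TC, ata-miR399a-3p and tae-miR395a_L-1 passed the floor only through the DTT+TUDCA pools. The higher count is therefore not read against that of all sequences. osa-miR827, osa-miR827_L-1 and osa-miR827_1ss21AT passed the floor on their control pools as well. The 2 lower ones were aly-miR395e-5p_R-1 and ppe-MIR395c-p3_2ss3AT18TC. aly-miR395e-5p_R-1 was listed at 0 with DTT+TUDCA and was thus the 1 member wholly below control (11.1% of sequences). The log2 ratio of ppe-MIR395c-p3_2ss3AT18TC was -2.37 and turned to 2.36 without control pool 2. That value rests on 4.13 normalized reads in DTT+TUDCA pool 2 against 0 in control pool 1. Grass-named miR827 summed to 7092 and 442 with DTT+TUDCA and 644 and 2143 in control, a log2 ratio of 1.43. It was -1.65 without DTT+TUDCA pool 1 and -0.11 on the scale of the wheat and grass lineage list. The log2 ratio of the other miR827 names was 0.50, and -0.36 without DTT+TUDCA pool 2. That of grass-named miR399 was 0.10, with sums of 145 and 167 with DTT+TUDCA and 150 and 140 in control. The other miR395 names had a log2 ratio of -2.61, or -1.96 without control pool 2, with both DTT+TUDCA pools below both control pools, and the other miR399 names one of -0.01 with overlapping pools.

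**Figure D4:**
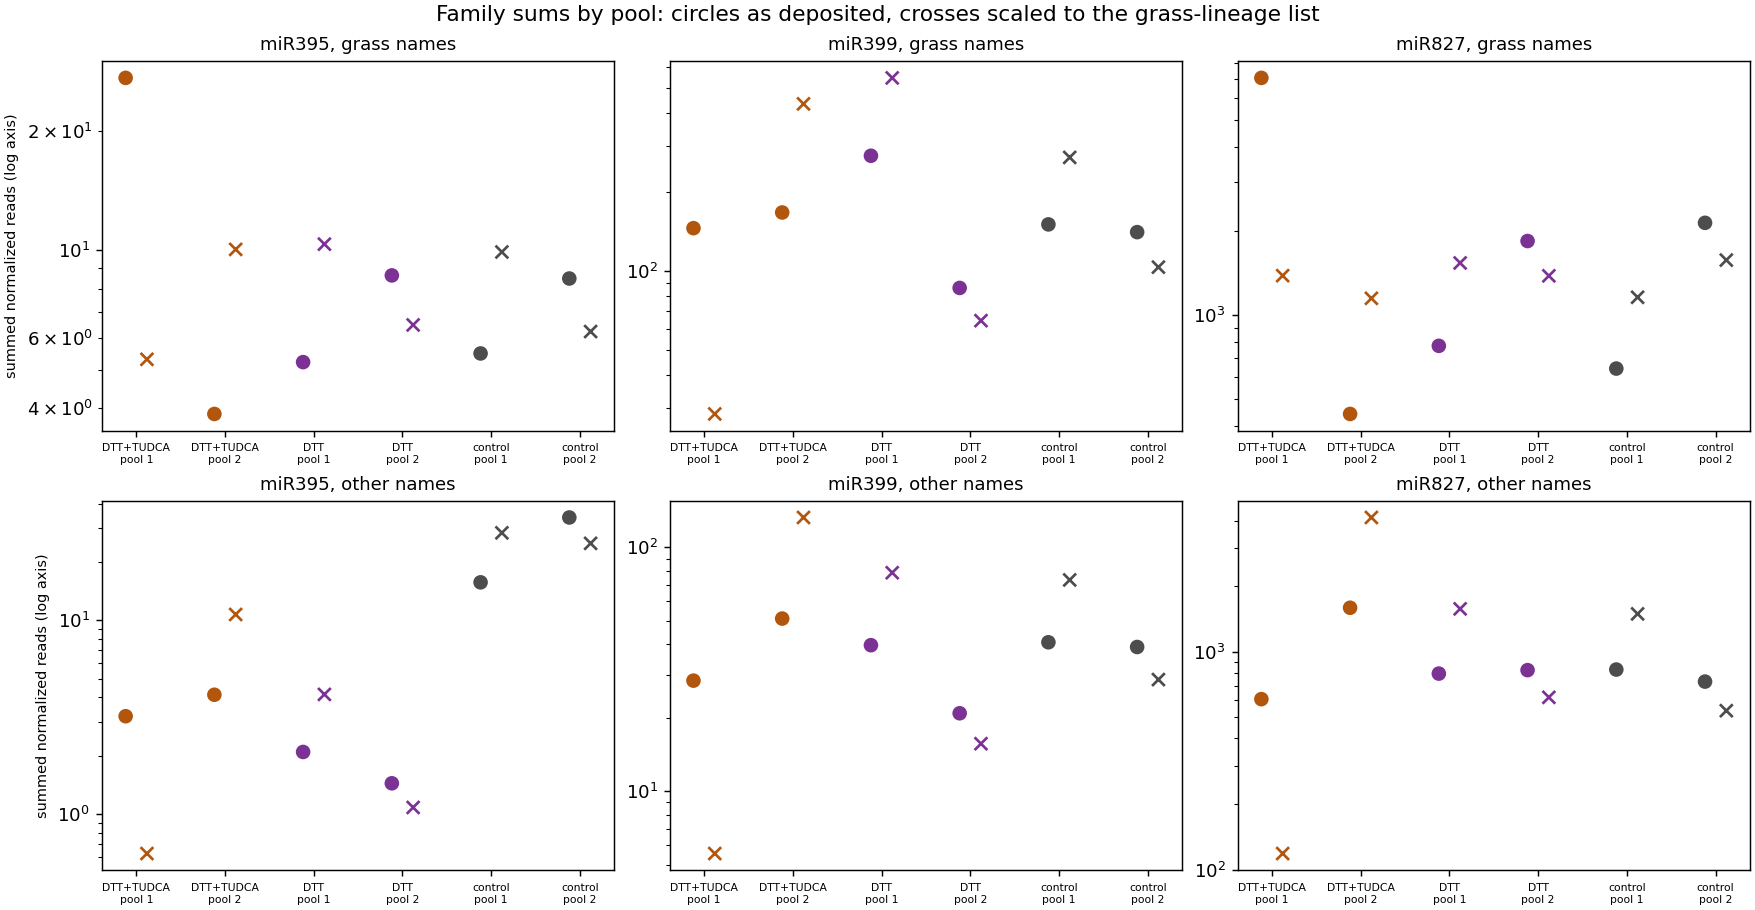
Summed normalized reads of each family (columns) for grass names (top) and other names (bottom) by pool on log axes with a range for each panel, as deposited (circles) and scaled to the wheat and grass lineage list (crosses). The scaled sums of grass-named miR827 lie between 1149 and 1576, and the deposited ones between 442 and 7092. For the other miR827 names the scaling widens the spread to 118 and 4137.

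Among the 540 sequences outside the families with a mean of at least 20 normalized reads, the 3 most like each family were found by Pearson's r of log2 values over the 6 pools, as a description over 3 samples. The sum of grass-named miR827 was closest to tae-MIR9674a-p5, tae-MIR5048-p3_1ss16TG and osa-MIR444c-p3_2, with r of 0.997, 0.997 and 0.995. Grass-named miR395 was closest to tae-miR9662a-3p, bdi-MIR444b-p3 and osa-miR168a-5p, with r of 0.997, 0.994 and 0.992. Grass-named miR399 was closest to aly-miR391-5p, aof-miR156b_R-1 and aly-MIR168a-p3, with r of 0.934, 0.933 and 0.914. All 3 sums are of grass-named sequences. The sequences closest to miR827 and miR395 carry grass names, and those closest to miR399 carry aly or aof names. The points share the makeup of each pool. tae-MIR9674a-p5, tae-MIR5048-p3_1ss16TG and tae-miR9662a-3p belong to the wheat and grass lineage list.

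Other nutrition miRNAs give the setting of these values. miR2111, which accumulates in phosphate-starved Arabidopsis, was read as ath-miR2111a-5p, at 22.4 and 21.7 with DTT+TUDCA, 27.2 and 14.4 with DTT alone, and 14.1 and 11.9 in control. All 4 DTT+TUDCA and DTT pools lay above the control pools, on sums under 2-fold apart, with DTT pool 2 at 14.4 just above control pool 1. Both DTT pools lay above control in 22.8% of all measured sequences and both DTT+TUDCA pools in 17.1%. ath-miR2111b-3p was at 6.39 and 15.5 with DTT+TUDCA, 12.5 and 12.2 with DTT alone, and 9.42 and 13.6 in control, so that its pools overlapped in each comparison. ath-miR778_L+1R-1, of another phosphate family, was at 12.2 or less. Of the measured copper miRNAs (miR397, miR398, miR408, miR528 and miR857), 5 of 17 were at least 2-fold higher with DTT than in control. This stands against 16.8% of all sequences and 10.6% of grass-named ones. With DTT+TUDCA 12 of 22 were higher than with DTT, against 40.2% of all sequences and 65.7% of grass-named ones, and 12 of 22 higher than in control, against 41.4% and 58.6%. In each of the 3 comparisons 0 of them were lower, against 10.2%, 3.46% and 6.05% of all sequences. Of the nitrogen list (miR169, miR393, miR826 and miR5090) 1 of 34 was higher and 8 lower with DTT than in control, against 16.8% and 10.2% of all sequences. With DTT+TUDCA 15 of 36 were higher and 4 lower than with DTT, against 40.2% and 3.46%, and 10 of 37 higher and 7 lower than in control, against 41.4% and 6.05%. Which sequences of the copper and nitrogen lists passed the floor only through the pools where they are high was not examined. Nothing is therefore read from these counts.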

How the data were processed

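Per the labels' protocols, leaf small RNA was prepared with the Illumina TruSeq kit for single-end sequencing on a HiSeq instrument. The values are signal, normalized reads in 1 table with 6 columns that the authors deposited, per the file headers. No source used here gives the normalization rule, the aligner, the counter or the filters. Column names were matched to treatments by the letters C, D and T of the sample titles, and the 2 pools of a treatment were treated as repeat runs of 1 sample.

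Rows were reduced to 1 per distinct sequence, and a sequence counted as grass-named when any of its names has a grass prefix. Log2 ratios used the summed pools with a pseudocount of 1, which shrinks ratios of low sequences, and a floor of 20 normalized reads. Where a pool was left out, the other pool of its treatment took its place in the sum. Between 94.7% and 97.2% of the values above 0 came out as whole multiples of a pool's step, within 0.01 reads. The step gave the number of reads a value is worth, and no count test was run since shared sequences carry fractions of a read. Values worth 1 read were rare (2 to 7 per pool, against 147 to 214 worth 2 reads), so no upper limit can be set for sequences listed at 0. Scaling to the wheat and grass lineage list used median-of-ratios over its 71 sequences above 0 in all pools.

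The members, lists and comparisons were chosen with earlier results of these data known. Values in all pools are given for up to 6 sequences per family and name class by mean, and 3 rarer ones of miR399 were named by value after they were seen. Alternative scalings, floors, limits and left-out pools are given in the closing section. Python 3.11.15, pandas 2.3.3, numpy 2.4.6, scipy 1.17.1 and matplotlib 3.10.9 were used.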

Additional observations from a re-analysis of the deposited data

How the results depend on the processing

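No paired analysis was possible because each treatment has 1 sample and nothing in the labels ties pools of different treatments. Scaled to the wheat and grass lineage list, log2 ratios with grass names turned to -0.13 (miR395) and -0.21 (miR827) for DTT+TUDCA against DTT, and to -0.067 and -0.11 for DTT+TUDCA against control, where miR399 was 0.30. This scaling moved the median of all sequences to 0.17 for DTT against control, 0.01 for DTT+TUDCA against DTT and 0.26 for DTT+TUDCA against control, from 0.08, 0.72 and 0.66 as deposited. It gave 4, 2 and 3 higher members in that order of comparisons. The 4 were miR399 sequences with grass names. The 2 were osa-miR827_1ss21AG and aof-miR827_1ss21AG, with log2 ratios of 1.16 and 1.07. The 3 were osa-miR827_1ss21AG, ath-miR827 and cca-miR399, with 1.93, 1.11 and 1.04. On this scale ath-miR827 was at 111 and 4058 with DTT+TUDCA, on both sides of its control pools. The share of all sequences higher on this scale is not given here, so nothing is read from these counts. A pseudocount of 5 gave -2.68 (DTT against control) and 0.53 (DTT+TUDCA against DTT) for miR395 with other names, against -3.48 and 0.88 with a pseudocount of 1. The cause of these shifts was not tested.

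In DTT against control, 1 member was higher with no floor, 0 were lower with a floor of 100, 2 were higher and 5 lower at a 1.5-fold limit, and 0 were lower with grass names alone. In DTT+TUDCA against DTT, 14 were higher and 3 lower with no floor, 3 and 0 with a floor of 100, 3 lower at 1.5-fold, and 0 higher where pools may not overlap. In DTT+TUDCA against control, 13 were higher with no floor, 3 and 0 lower with a floor of 100, 0 and 1 lower where pools may not overlap, and 0 lower with grass names alone. The shares of all sequences under these settings are not given here, so nothing is read from the changes in these counts. Equal totals, median-of-ratios, TMM, all rows as listed and merged identical values kept each count within 1.5 times and each family ratio within the spread of single pools.

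Leaving out 1 pool gave 0 to 3 higher and 3 to 4 lower in DTT against control, 0 to 9 and 0 to 3 in DTT+TUDCA against DTT, and 1 to 9 and 1 to 5 in DTT+TUDCA against control. The lowest higher counts of the last 2 came without DTT+TUDCA pool 1, and no share of all sequences with a pool left out stands beside these counts. For DTT against control, log2 ratios then ranged from -0.75 to 0.92 (miR399 grass names) and -0.92 to -0.0077 (miR399 other names). For DTT+TUDCA against DTT they ranged from -0.77 to 1.90 (miR395 grass), -0.81 to 0.86 (miR399 grass), -1.57 to 2.44 (miR827 grass) and -0.42 to 0.98 (miR827 other). For DTT+TUDCA against control they ranged from -0.78 to 1.89 (miR395 grass), -3.05 to -1.96 (miR395 other), -1.65 to 2.55 (miR827 grass) and -0.36 to 1.03 (miR827 other). The miR395 values are worth at most 20 reads, which limits their precision.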
